A study of Rattus norvegicus with 4 samples.

Results

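The insulin-like growth factor (IGF) system was followed through 5 genes, Igfbp2, Igfbp3, Igf1, Igf2 and Igf1r, in cultured rat cortical neurons that were depolarized with potassium chloride (KCl). Every probe set whose platform gene symbol was 1 of these 5 was taken, which gave 16 of the 1263 probe sets on the array that are not Affymetrix controls, for 5 of its 720 genes with a single symbol. Igfbp2 and Igfbp3 were picked with their difference between KCl and control already known, so the values of the 5 genes are a description, and no p-value is printed for any of their probe sets.

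Cortical neurons were prepared from rats at embryonic day 17 and cultured for 14 days in Neurobasal medium with B27, a serum-free supplement that contains insulin. The 2 KCl samples, KCl 1 and KCl 2, had been exposed to 25 mM KCl for 4 h, and the 2 control samples, control 1 and control 2, had been given phosphate-buffered saline for the same 4 h. The comparison addresses which genes depolarization induces. The strain, the sex and any pooling of embryos are not given in the labels, and they do not state that replicates were separate cultures. The errors and p-values below may therefore reflect technical spread alone. The description label words all 4 samples as unstimulated, KCl included, and the groups were taken from the titles and treatment protocols.

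IGF1 and IGF2 are secreted peptides related to insulin that act mainly through the receptor tyrosine kinase IGF1R, which signals to the PI3K-Akt and Ras-MAPK relays and promotes the survival and growth of neurons. In the fluid around cells most of the peptide is held by IGF-binding proteins, which can withhold the ligand from the receptor or deliver it. IGFBP2 is abundant in the brain and its fluids and is made largely by glia and choroid plexus, whereas IGFBP3 is best known as the main carrier of IGFs in blood.

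Each value is a probe set intensity in arbitrary units, as deposited. The arrays had already been brought to 1 level, with trimmed means between 502.0 and 502.4. The 19 probe sets for bacterial and yeast transcripts read at most 73.7, and a value at or below 73.7 is called within background. Read through the brightest tested probe set of each gene, 9 of 10 neuron markers were above background on at least 1 array, and the probe set of the tenth, Camk2a, was within it on all 4. Of 7 astrocyte markers 6 were above it on at least 1 array, so the cultures also held astrocyte transcripts. In tissue or cultures of mixed cells, fewer cells of a type and less RNA per cell cannot be told apart.

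The 2 binding protein genes stood in opposite positions after KCl. Igfbp2 was 1.42-fold and 1.70-fold higher in KCl cultures on its 2 probe sets, and Igfbp3 was 1.78-fold and 2.10-fold lower on its 2. The ligand and receptor probe sets above background on all 4 arrays had log2 changes between 0.02 and 0.17. Their moderated SEs from limma were 0.16 to 0.30, which does not exclude larger changes. For Igf1 this covers 1 of its 5 probe sets.

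The brighter probe set of Igfbp2, J04486_at, read 1743 on KCl 1 and 1435 on KCl 2, against 1100 on control 1 and 1126 on control 2. Both KCl arrays lay above both control arrays, and the control arrays were nearly alike while the KCl arrays differed from each other. The means were 1589 ± 218 in KCl cultures and 1113 ± 18 in control cultures (SD, n = 2 each), a log2 change of 0.51 ± 0.13 (moderated SE from limma).

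The other probe set of Igfbp2, M91595exon_s_at, read 1660 on KCl 1 and 1285 on KCl 2, against 816 on control 1 and 905 on control 2. The groups were again apart, with KCl 1 the highest array on both probe sets. The means were 1473 ± 265 in KCl cultures and 860 ± 63 in control cultures, a log2 change of 0.77 ± 0.15.

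For Igfbp3, the brighter probe set M31837_at read 336 on KCl 1 and 394 on KCl 2, against 716 on control 1 and 586 on control 2. Here both KCl arrays were below both control arrays. The means were 365 ± 41 in KCl cultures and 651 ± 92 in control cultures, a log2 change of −0.83 ± 0.16.

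The second probe set of Igfbp3, rc_AI009405_s_at, read 143 on KCl 1 and 146 on KCl 2, against 353 on control 1 and 259 on control 2. The KCl arrays were nearly alike, and the spread was that of the controls. The means were 144 ± 2.2 in KCl cultures and 306 ± 66 in control cultures, a log2 change of −1.07 ± 0.21. On both probe sets the lowest array was KCl 1 and the highest was control 1.

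**Figure D1:**
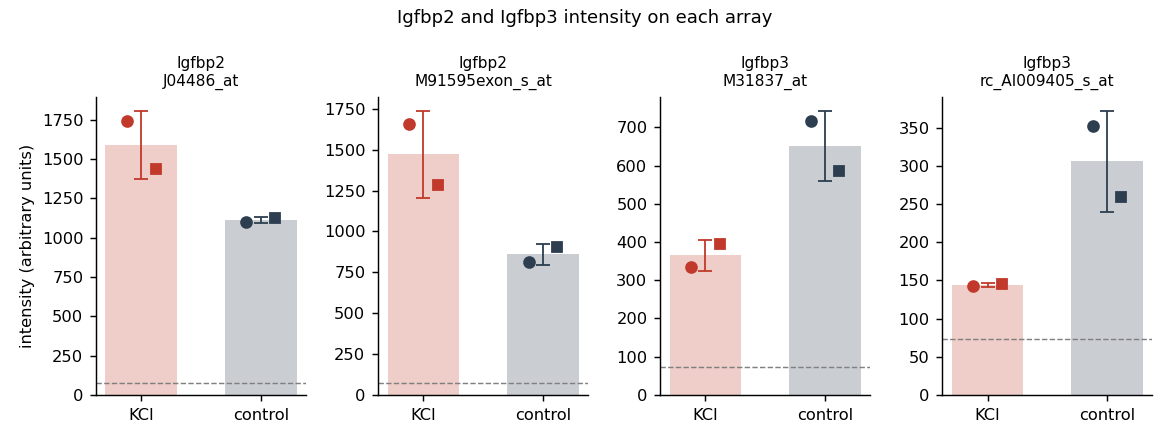
Intensity in arbitrary units of the 2 Igfbp2 and the 2 Igfbp3 probe sets in KCl (red, left) and control (dark, right) cultures. Circles are replicate 1 and squares replicate 2, bars are means, error bars are SD of 2 arrays, and the dashed line is the highest background reading of 73.7. Both KCl arrays lie above both control arrays for Igfbp2 and below them for Igfbp3.

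Taken against each other on the same arrays, the log2 change of Igfbp2 exceeded that of Igfbp3 by 1.34 with the brighter probe set of each gene. With the other 3 combinations of probe sets the difference was 1.58, 1.60 and 1.84. For the brighter pair, each KCl array set against each control array gave a difference between 0.92 and 1.76. As a ratio, the balance of Igfbp2 to Igfbp3 signal was shifted 2.53-fold towards Igfbp2 in KCl cultures. Levels of different probe sets on an array are not comparable with each other, and this value compares changes, not amounts.

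The 2 genes also differ in the sequence before their start. The 250 bases upstream are shown for both, because these are the members whose levels differed, with capitals marking matches to the motifs searched (RefSeq, GRCr8, 5′ to 3′ on the strand of the gene). The Igfbp2 window is chr9:81864561-81864810 on the plus strand and the Igfbp3 window is chr14:86277945-86278194 on the minus strand.
Igfbp2: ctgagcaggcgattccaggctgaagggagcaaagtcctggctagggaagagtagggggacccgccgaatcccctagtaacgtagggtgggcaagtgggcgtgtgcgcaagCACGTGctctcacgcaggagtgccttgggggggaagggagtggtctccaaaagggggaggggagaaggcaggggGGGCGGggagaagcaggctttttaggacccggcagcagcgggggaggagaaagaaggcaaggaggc
Igfbp3: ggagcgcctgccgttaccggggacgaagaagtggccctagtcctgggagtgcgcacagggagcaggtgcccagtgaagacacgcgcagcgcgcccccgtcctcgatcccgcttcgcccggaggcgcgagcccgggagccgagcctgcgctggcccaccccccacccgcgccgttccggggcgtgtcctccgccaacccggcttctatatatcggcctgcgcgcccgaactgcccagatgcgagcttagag

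A set of 6 motifs was searched on both strands, namely the full cAMP response element (CRE) TGACGTCA, its shorter core TGACG, which the full element contains, the AP-1 site TGANTCA, the GC box GGGCGG, the E-box CACGTG and the TATA box TATAAA. The Igfbp2 window held 1 E-box, which begins 140 bases before the gene start, and 1 GC box, which begins 66 bases before it. Of 33469 windows of this length in the RefSeq table, 5.59% held an E-box of these letters and 30.5% held a GC box. The Igfbp3 window held none of the 6 in these exact letters, though it holds a stretch tatatat, which the search for TATAAA did not cover. The motifs of the Igfbp2 window were not its alone, since the Igf1r window also held 1 E-box and 1 GC box and 1 of the 2 Igf2 windows held a GC box.

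Neither window held the letters of a CRE, a CRE core or an AP-1 site, which are among the elements known from activity-induced genes. Nor did those of Igf1, Igf2 (2 windows) and Igf1r. Other elements, and sequence outside these 250 bases, were not searched. Among all windows 1.59% held the full CRE, 18.2% the core and 6.34% the AP-1 site. The Igfbp3 window was 71.6% G and C with 31 CpG dinucleotides and the Igfbp2 window 64% with 11, against a median of 51.2% G and C over all windows. A match of letters is a description of the sequence and not a binding site.

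Of the ligands, Igf1 encodes insulin-like growth factor 1 and had 5 probe sets, of which 1 was above background on all 4 arrays. That one, X06107_r_at, read 109 on both KCl arrays, against 103 on control 1 and 112 on control 2. The KCl values lay between the control values, and the log2 change was 0.02 ± 0.26.

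M15481_at, another Igf1 probe set, read 52 on KCl 1 and 164 on KCl 2, against 45 on control 1 and 95 on control 2. Replicate 2 was the higher array in both groups, the groups overlapped, and the gap of 1.66 on the log2 scale between the KCl arrays was larger than the log2 change of 0.49 ± 0.58. The remaining 3 Igf1 probe sets were within background on every array, with readings between 1.4 and 67.2, and no fold is given for them.

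Igf2, which encodes insulin-like growth factor 2, a ligand made in brain mainly by choroid plexus and meninges, had 6 probe sets, of which 3 were above background on all 4 arrays. The brightest, M17960_g_at, read 315 on KCl 1 and 357 on KCl 2, against 300 on control 1 and 316 on control 2. KCl 1 lay just below control 2, so the groups overlapped, and the log2 change was 0.12 ± 0.16.

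M17960_at, from the same source sequence, read 153 on KCl 1 and 113 on KCl 2, against 113 on control 1 and 146 on control 2, a log2 change of 0.03 ± 0.27. X17012mRNA_s_at read 97 on KCl 1 and 114 on KCl 2, against 111 on control 1 and 82 on control 2, a log2 change of 0.14 ± 0.30. On both the arrays of a group differed by more than the groups did. The other 3 Igf2 probe sets were within background on every array. X16703_r_at read between 23.4 and 49.3 and E00988mRNA_s_at between 11 and 16.6, with overlapping groups on both. X16703_i_at, the third of these, read 39 on KCl 1 and 20 on KCl 2, against 2.7 on control 1 and 16 on control 2. Its groups did not overlap, but with all 4 values within background no fold is given.

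Igf1r, the receptor of both ligands, had 1 probe set, M27293_s_at, which read 137 on KCl 1 and 117 on KCl 2, against 111 on control 1 and 115 on control 2. The KCl arrays were above the control arrays, KCl 2 by little, and the log2 change was 0.17 ± 0.25. The gap between the KCl arrays, 0.24 on the log2 scale, was larger than that change.

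**Figure D2:**
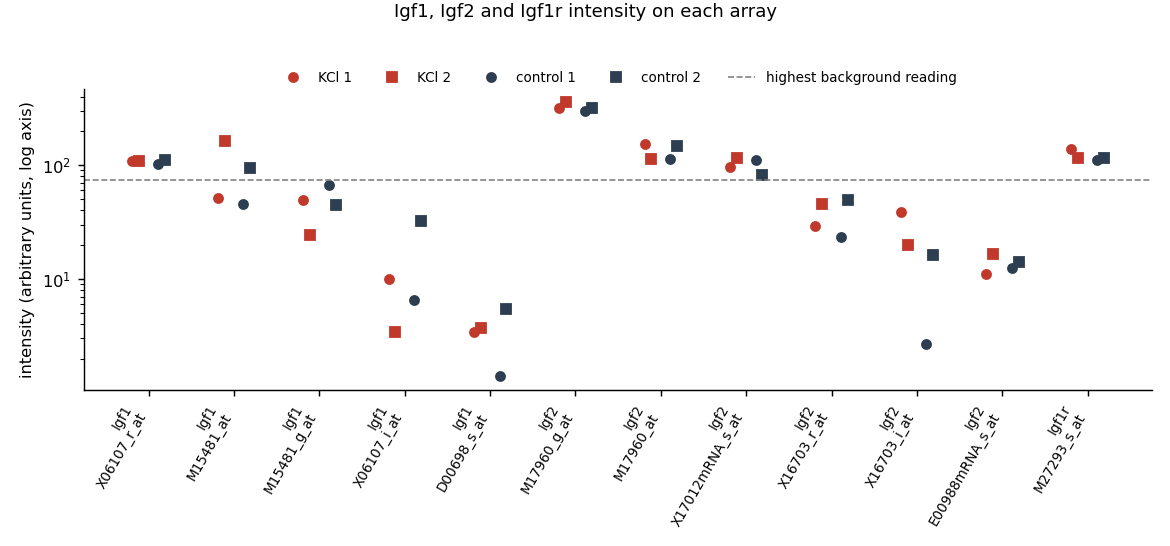
Intensity (log axis, arbitrary units) of the 12 probe sets of Igf1, Igf2 and Igf1r on each array, with KCl in red left of control in dark, circles for replicate 1 and squares for replicate 2. The dashed line is the highest background reading of 73.7; 5 of the 12 probe sets lie above it on all 4 arrays, and 6 lie below it on all 4.

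Across the array, KCl was compared with control by limma on log2 intensities after the dimmest 25% of probe sets had been left out, which kept 947. A total of 102 were called at an adjusted p below 0.05, which is 10.8% of those tested. Of the 16 probe sets of the IGF system, 12 were tested, and 4 were called, 2 of Igfbp2 as higher and 2 of Igfbp3 as lower, beside 5.49% of all tested called higher and 5.28% called lower. Since the genes were chosen from this comparison, nothing is read from that count. None of the 8 tested ligand and receptor probe sets was called by limma, and 0 had an unadjusted p below 0.05. Over all 947 tested, 242 had an unadjusted p below 0.05 by limma. The median log2 change was 0.11 over the 12 and −0.10 over all 947 tested, and the smallest change called anywhere was 0.40.

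By size, the changes of the binding proteins were moderate within the table. Of the 947 probe sets, those of Igfbp3 held the 32nd and 60th places among the falls, and those of Igfbp2 the 83rd and 128th places among the rises. The groups did not overlap on 5 of the 12 tested probe sets, the 4 of the binding proteins and that of Igf1r, whereas 58.0% of all tested probe sets had groups that did not overlap. The calls rest on a spread shared across probe sets. Separately, 2 arrays against 2 cannot give an exact two-sided permutation p below 0.33. Leaving out control 1 or control 2 keeps 1 control array, and few probe sets anywhere were then called. Those of the binding proteins were not among them, while their log2 changes ran from 0.49 to 0.84 for Igfbp2 and from −1.29 to −0.69 for Igfbp3. Without KCl 1 the log2 changes of the 2 Igfbp2 probe sets were 0.37 and 0.58, and without KCl 2 they were 0.65 and 0.95. Those of Igfbp3 lay between −1.08 and −0.72 in these 2 settings. With quantile normalization 0 of the 2 Igfbp2 probe sets and 2 of the 2 Igfbp3 probe sets were called, beside 77 of all 947. Without the intensity trend in the variance 0 of these 4 were called, beside 21 of all 947.

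**Figure D3:**
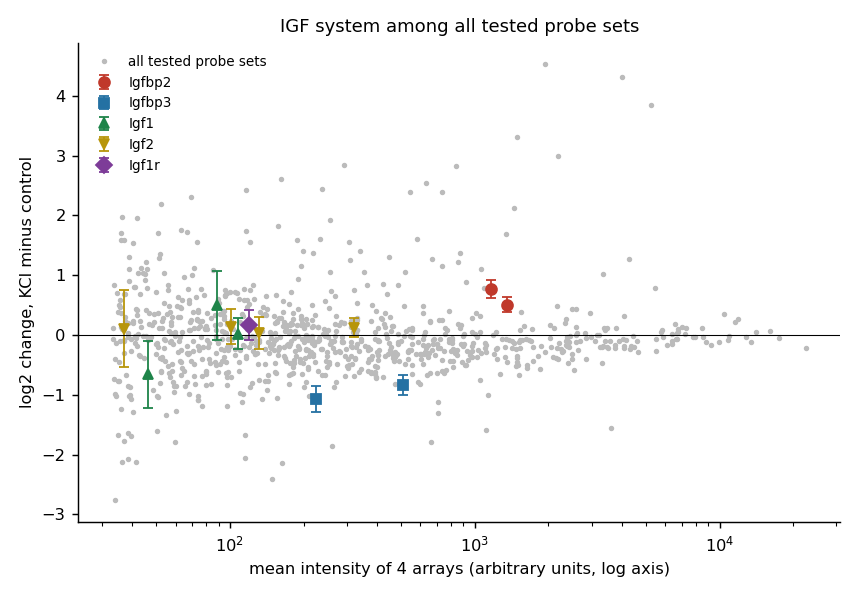
Log2 change (KCl minus control) against the mean intensity of the 4 arrays (log axis, arbitrary units) for the 947 tested probe sets (grey) and the 12 tested probe sets of the IGF system (coloured, error bars are moderated SE). Igfbp2 lies above 0 and Igfbp3 below it, and the Igf1, Igf2 and Igf1r probe sets above background on all arrays lie between 0.02 and 0.17.

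Markers of astrocytes, a cell type that expresses Igfbp2, were higher on the same arrays. Of 10 listed markers 7 had a probe set under their symbol and were tested, each through its brightest tested probe set. Of these 6 rose (limma, adjusted p below 0.05) and none fell, where 5.09% of all genes tested rose. Over all tested probe sets of a gene, 2 of 2 were called for Apoe, 2 of 4 for Slc1a3, 1 of 2 for S100b and 2 of 4 for Glul. The control values of Gja1, 32.9 and 41.1, were within background. In counts added after the data were seen, limma called 0 of the 7 without the intensity trend (6 had an unadjusted p below 0.05), beside 21 of all 947 probe sets. After quantile normalization it called 4 of the 7, beside 77 of all 947. Without control 1 or without control 2, which leaves 1 control array, few probe sets anywhere were called and no astrocyte marker was among them. Their summed intensity was 12551 on KCl 1 and 9974 on KCl 2, against 5484 on control 1 and 5220 on control 2. Bright probe sets weigh most in such a sum, here that of Apoe, at 6925 on KCl 1 and 2700 on control 1. It does not measure the share of astrocyte transcripts. Apoe, which encodes a lipid carrier protein, rose 2.41-fold and Slc1a3, an astrocytic glutamate transporter gene, also 2.41-fold. No marker was listed at 0, Slc1a2 was within background on all arrays, and Gfap, Aqp4 and Aldh1l1 were not analysed here.

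The KCl arrays also differed from each other for Igfbp2, with KCl 1 above KCl 2 by 1.21-fold and 1.29-fold on its probe sets. The median ratio of KCl 1 to KCl 2 was 1.33 for the 7 astrocyte markers and 0.95 over all 570 genes tested. Of the 7 markers 5 read higher on KCl 1, whereas Slc1a3 and Slc1a2 had ratios of 0.87 and 0.92. The part of astrocyte transcripts in the Igfbp2 difference was not tested. The hexokinase control probe sets, whose 3′ signal over 5′ signal is a sign of RNA quality, were also apart, at 2.49 on KCl 1 and 2.67 on KCl 2, against 2.25 on control 1 and 2.00 on control 2, and its part in the changes of Igfbp2 and Igfbp3 was not tested. That of the Gapdh control probe sets overlapped between the groups.

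Beside the lower Igfbp3, 1 of 10 neuron markers was called higher, Snap25, on 1 of its 4 probe sets, and none was called lower. Syp had a log2 change of −0.29 ± 0.10 that did not pass (limma adjusted p = 0.12, unadjusted p = 0.021). The neuron markers' summed intensity was 30902 and 31495 on the KCl arrays, against 32468 and 33786 on the control arrays. Bright probe sets such as that of Gap43 weigh most in it, and it does not measure the share of neuron transcripts. The part of neuron transcripts in the Igfbp3 difference was not tested. Of the fibroblast, meningeal and endothelial markers, from cells that can express Igfbp3 and Igf2, 1 of 12 was tested, Vcam1. It read 129 on KCl 1 and 131 on KCl 2, against 77 on control 1 and 81 on control 2. The log2 change of 0.72 ± 0.27 did not pass (limma adjusted p = 0.14, unadjusted p = 0.026). The microglial marker tested, Itgam, was within background. Of 5 oligodendrocyte lineage markers tested none passed by limma and 0 had an unadjusted p below 0.05, beside 242 of the 947 probe sets tested.

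Further genes of the pathway were taken from a list of 77, of which 19 had a probe set and 17 were tested, each through its brightest probe set. By limma 1 rose and 1 fell, beside 5.09% of the 570 genes tested in each direction. An unadjusted p below 0.05 by limma was reached by 4 of the 17, beside 242 of the 947 probe sets tested. The median log2 change over the 17 was −0.21 and over the 570 genes −0.09.

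Among ligands, receptors and binding proteins, none of 4 tested genes was called by limma and 0 had an unadjusted p below 0.05. Igfbp5, another binding protein gene of the brain and the neighbour of Igfbp2 on chromosome 9, read 72 on KCl 1 and 78 on KCl 2, against 101 on control 1 and 135 on control 2. Its KCl values were the lower ones, with KCl 1 within background, at a log2 change of −0.64 ± 0.30. Its other probe set had 0.67 ± 0.49, with control 2 within background at 34.8, so the 2 probe sets disagreed in direction. Igfbp6, which prefers IGF2, had a log2 change of 0.04 ± 0.26. Insr, the insulin receptor gene, had −0.22 ± 0.28, and Ins1, an insulin gene of rodents whose family-type probe set may also pick up its relatives, had −0.20 ± 0.44. The Ins1 values on KCl 1 and control 2, 54.4 and 60.2, were within background. Igfbp1, which lies beside Igfbp3 on chromosome 14, was left out as dim, reading 6.3 and 5.6 on the KCl arrays, against 12 and 9.9 on the control arrays.

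The growth hormone and somatostatin axis sets IGF1 production in the body through the pituitary and liver. In it 1 of 4 tested genes fell, Sst, whose product somatostatin inhibits growth hormone release and which cortical interneurons also make. Sst read 1712 on KCl 1 and 1951 on KCl 2, against 5491 on control 1 and 5199 on control 2, with the groups far apart. Its log2 change was −1.55 ± 0.11 (limma adjusted p = 4.1e-05), and both of its probe sets were called. The somatostatin receptor genes Sstr2 and Sstr4 had log2 changes of −0.30 ± 0.13 and −0.45 ± 0.20 and did not pass (limma adjusted p = 0.19 and 0.21), and Gh1, the growth hormone gene, was within background on all arrays. Ghr, the growth hormone receptor gene, was left out as dim.

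Of the adaptors and the PI3K-Akt relay 4 genes were tested, and none was called by limma, with 0 at an unadjusted p below 0.05. Pik3r1, the regulatory subunit of the PI3K that IGF1R recruits, had a log2 change of −0.06 ± 0.16. Pik3c3, a PI3K of vesicle traffic, had −0.43 ± 0.21, and Bad, a death-promoting protein that Akt inactivates, −0.11 ± 0.10. Gsk3b, a kinase that Akt inhibits, had 0.28 ± 0.25 on the brighter of its 2 tested probe sets. The other, X73653_at, was not called either, and without KCl 2 its log2 change was 1.00.

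In the Ras-MAPK relay 1 of 5 tested genes rose, Dusp5, which encodes a nuclear phosphatase of ERK kinases. It read 438 on KCl 1 and 513 on KCl 2, against 260 on control 1 and 200 on control 2, and its groups were apart. The log2 change was 1.06 ± 0.19 (limma adjusted p = 0.0091). The call was lost without the intensity trend, where 21 of all 947 probe sets were called. It was also lost without control 1 and without control 2, where few probe sets anywhere were called. Araf, a kinase upstream of MEK, had −0.35 ± 0.13 (limma adjusted p = 0.13), Map2k2, a MEK gene, −0.21 ± 0.10, and Nf1, a brake on Ras, 0.36 ± 0.20.

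**Figure D4:**
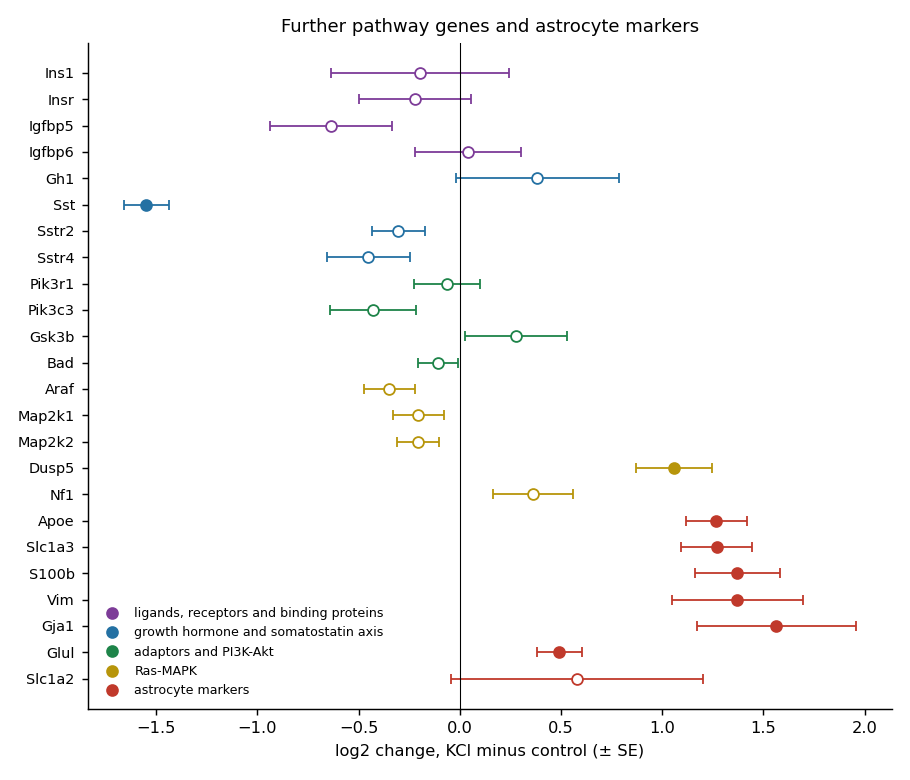
Log2 change (KCl minus control) with moderated SE of the 17 tested further pathway genes and the 7 tested astrocyte markers, each through its brightest tested probe set. Filled points were called by limma at an adjusted p below 0.05 and open points were not; in the pathway list these are Sst, lower, and Dusp5, higher, and 6 of the 7 astrocyte markers are filled.

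The genes most like the binding proteins over the 4 arrays were ranked by the root mean square difference of log2 intensity, each gene centred on its own mean, among 565 other genes. Nearest to Igfbp2 (J04486_at) were Chrne, a nicotinic receptor subunit gene, at 0.047, Slc2a1, the gene of the glucose transporter GLUT1, at 0.064, and Foxd3, a forkhead factor gene, at 0.068. Irf1, an interferon regulatory factor gene, and P2rx2, an ATP-gated channel gene, followed at 0.080 and 0.082. None of these 5 was itself called, with log2 changes between 0.51 and 0.59. The control values of Foxd3, 72.4 and 69.1, and the control 1 value of Irf1, 68.6, were within background. The Foxd3 probe set, L13202_f_at, is of the family type like that of Ins1 and may also pick up related genes. The probe sets of P2rx2 did not agree in direction, with −0.82 ± 0.70 on U14414_at and 0.17 ± 0.69 on AF028603_s_at.

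Nearest to Igfbp3 (M31837_at) was Chrm3, the M3 muscarinic receptor gene, at 0.032. It read 320 on KCl 1 and 362 on KCl 2, against 651 on control 1 and 560 on control 2, so that its order over the arrays was that of Igfbp3. Slc24a2, a sodium-calcium exchanger gene, followed at 0.067, Ntf3, the neurotrophin 3 gene, at 0.070, Kit, a receptor tyrosine kinase gene, at 0.107, and Cacna1d, a calcium channel gene, at 0.107. Of these 5, Chrm3 and Ntf3 were called lower, and the log2 changes of the 5 lay between −0.97 and −0.67. Slc24a2 was within background on KCl 1, KCl 2 and control 2, at 38.1, 48 and 70.3, and Kit on KCl 1, at 62.9. With 4 arrays many genes can lie this close, and the ranking is a description of these arrays.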

How the data were processed

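The authors deposited linear probe set intensities and had already scaled the arrays to a common level, which the values show. Per the labels' protocols, biotin-labelled cRNA came from 5 µg of total RNA, on 1-colour Affymetrix arrays. How probes were summarised is not given in the sources used here. Of 1322 probe sets, 59 controls were set aside. Symbols came from the platform annotation, which gave 1137 probe sets 1 symbol, 8 several and 118 none. Intensities were taken to log2 and fitted with limma 3.58.1 (R 4.3.3), with an intensity trend in eBayes and Benjamini-Hochberg adjustment over 947 probe sets, two-sided, after the 316 dimmest were left out (means up to 33.3). The fit was tested on simulated data. The 2 arrays per group limit the precision, with a median SE of 0.21 for log2 changes. The members, gene lists and tests were chosen with earlier results of these data known. Named pathway genes were those called and the 4 of each group with the smallest p, and the 5 nearest genes were named for each binding protein; other named genes are list members. Alternatives were quantile normalization, median centring, a pseudocount, other filters, a replicate block, no intensity trend, and leaving out each array. Probe sequences and proteins were not used here.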

Additional observations from a re-analysis of the deposited data

How the results depend on the processing

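Under quantile normalization, median centring and a pseudocount of 32, the log2 changes ran from 0.49 to 0.77 for the 2 Igfbp2 probe sets and from −1.07 to −0.78 for the 2 Igfbp3 probe sets. The difference between the genes was 1.27 to 1.34 under these settings and 1.08 to 1.60 without each array in turn, where its sign follows from groups that do not overlap and is no sign of stability. The number of calls depended more on the settings. Over all probe sets 102 were called (52 higher, 50 lower), and leaving out 1 array gave 11 to 178 (10 to 72 higher, 1 to 106 lower), fewest without control 2 (14 without control 1) and most without KCl 2. Without the intensity trend 21 were called, 18 higher and 3 lower, and the lower calls numbered 31 after quantile normalization and 33 with no filter. The replicate numbers did not pair the samples (r = −0.03 between the replicate differences of both groups over 947 probe sets). With the replicate block 50 were called, 15 of them lower, and none of the 4 binding protein probe sets. For the further pathway genes, 1 higher and 1 lower as reported, leaving out 1 array gave 0 to 1 higher and 1 to 2 lower, the second being Araf without KCl 2. The higher call, Dusp5, was lost with the replicate block and without the intensity trend (0 called higher by limma, 1 at an unadjusted p below 0.05 in each). Of the 2 Igfbp2 probe sets 1 was called with median centring, with no filter and without KCl 1. Without KCl 1 the Igf1 probe set M15481_at was called higher (log2 change 1.32), resting on KCl 2. For Igf1, X06107_r_at had log2 changes of −0.04 without control 1 and 0.08 without control 2. The cause was not tested. The 2 arrays per group limit what can be called, and most ligand signals lay near background.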
